A study of Mus musculus with 4 samples.

Results

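The genes described here are 9 members of the fibroblast growth factor (FGF) system that are known for roles in the hair cycle. They comprise 5 secreted ligands (Fgf5, Fgf7, Fgf10, Fgf18 and Fgf22), 3 receptor tyrosine kinases (Fgfr1, Fgfr2 and Fgfr3) and the secreted carrier Fgfbp1. They were chosen by symbol, and all 9 had a row among the 17721 genes of the deposited table. RNA was measured in 4 libraries of epidermal lysate, taken from the back skin of mice on the C57BL/6 background that were 63 days old. The libraries fall into 2 wild type and 2 LDB2-/- samples, where LDB2-/- is loss of Ldb2, which encodes an adaptor of LIM domain transcription factors. The labels give neither the design of the null allele nor the sex, and nothing in them says that the 2 libraries of a genotype came from separate animals. P-values therefore measure only the spread between these libraries, which may be technical.

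FGF ligands bind their receptors together with heparan sulfate, and the receptors signal largely through the RAS and ERK kinases. In skin, Fgf7, Fgf10 and Fgf22 belong to one ligand subfamily and act on the epithelial splice form of Fgfr2. Fgf7 and Fgf10 come from dermal cells such as the dermal papilla and from epidermal T cells, and Fgf22 is known from the inner root sheath. Fgf5 is made in the growing follicle and ends its growth phase (anagen), so that mice without it have long hair. Fgf18 is made in the resting follicle (telogen) and holds it at rest. Fgfbp1 releases FGFs from the heparan sulfate of the matrix.

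Of the ligands, Fgf5 and Fgf22 were higher in LDB2-/- epidermis, by 85.7-fold and 16.2-fold. Fgfr1, Fgfr2 and Fgfr3 were lower by 1.77-fold, 2.15-fold and 1.41-fold, and Fgfbp1 was lower by 4.77-fold. Fgf18 was lower too, and the calls of Fgf18 and Fgfr3 depended on the fit. Fgf7 and Fgf10 were low in every library. The folds come from edgeR's quasi-likelihood test on the deposited counts, scaled by TMM (a trimmed mean of gene-wise ratios that sets each library's effective size). The test covered genes that reached an FPKM (fragments per kilobase, relative to library size) of 1 in 2 or more libraries, and a call needed a Benjamini-Hochberg adjusted p under 0.05.

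**Figure D1:**
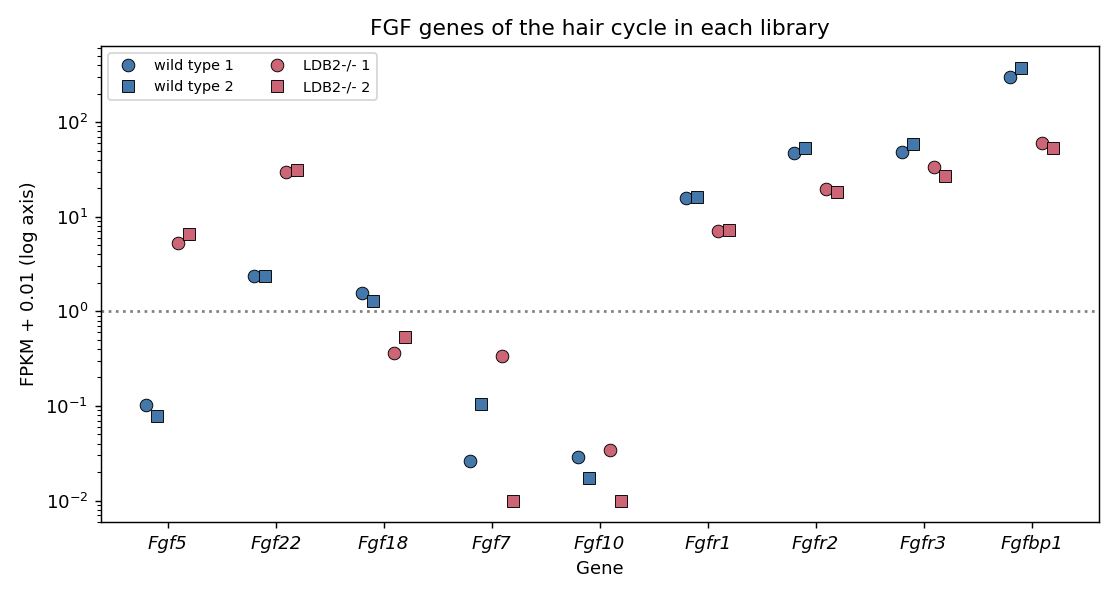
FPKM + 0.01 (log axis) of each of the 9 genes in the 4 libraries, with circles for library 1 and squares for library 2 of each genotype and the dotted line at an FPKM of 1. Fgf5 and Fgf22 sit higher in both LDB2-/- libraries, Fgf18, the 3 receptors and Fgfbp1 sit higher in both wild type libraries, and Fgf7 and Fgf10 overlap.

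Of the 9 genes, 7 passed the filter on low values, and all 7 were called, 2 higher and 5 lower. Among all 12400 genes tested, 57.2% were called, 28.4% higher and 28.8% lower, so a call by itself sets none of these genes apart. FPKM did not overlap between genotypes for 83.7% of the tested genes (27.6% higher and 56.1% lower). Fgf5 passed the filter only through the LDB2-/- libraries and Fgf18 only through the wild type libraries, so their direction was fixed by passing. Total counts ran from 54095522 to 68436842 per library. Ldb2 itself had 0 and 8 counts in wild type against 0 and 0 in LDB2-/-, too few to check the genotype labels. With the library total alone as the scale, the median over all tested genes went from -0.01 to -0.33 on the log2 scale, with 2248 genes higher and 5096 lower, where TMM gave 3521 and 3576. All 7 calls and directions held under that scaling.

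Sequence upstream of the start is shown for Fgf5 and Fgf22, which rose, and for Fgfr2 and Fgfbp1, the receptor and the carrier with the largest falls, to set their promoters side by side. Each is the 180 bases just before the RefSeq gene start, read 5′ to 3′ on the gene's strand (RefSeq, GRCm38.p6, the assembly of mm10). Capitals mark matches to any of 5 motifs, searched on both strands. LIM homeodomain factors were given the core TAATTA, while LEF/TCF factors were given CTTTGA. For AP-1 the letters were TGANTCA, where N is any base. The GC box was written GGGCGG, and the TATA box was written TATAAA. No marked matches overlap. The windows lie at chr5:98254004-98254183 (Fgf5, plus strand), chr10:79754871-79755050 (Fgf22, plus strand), chr7:130266809-130266988 (Fgfr2, minus strand) and chr5:43981829-43982008 (Fgfbp1, minus strand).
Fgf5: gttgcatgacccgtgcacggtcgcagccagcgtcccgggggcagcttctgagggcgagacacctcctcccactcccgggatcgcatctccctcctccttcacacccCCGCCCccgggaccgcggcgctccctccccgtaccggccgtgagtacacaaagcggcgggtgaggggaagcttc
Fgf22: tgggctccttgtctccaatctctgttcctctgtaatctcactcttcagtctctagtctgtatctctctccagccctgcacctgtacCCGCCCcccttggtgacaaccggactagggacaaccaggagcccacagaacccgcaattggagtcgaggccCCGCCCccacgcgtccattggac
Fgfr2: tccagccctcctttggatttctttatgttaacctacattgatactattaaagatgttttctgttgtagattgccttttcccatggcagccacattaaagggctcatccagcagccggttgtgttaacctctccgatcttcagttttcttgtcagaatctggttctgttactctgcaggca
Fgfbp1: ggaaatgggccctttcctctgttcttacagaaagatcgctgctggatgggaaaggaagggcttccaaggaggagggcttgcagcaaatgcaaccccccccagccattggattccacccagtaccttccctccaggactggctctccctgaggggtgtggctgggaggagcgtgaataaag
In these 4 windows the GC box was the only motif matched, each time on the opposite strand. A match is a run of letters, not a shown binding site. Fgf5 had 1 match and Fgf22 had 2, while Fgfr2 and Fgfbp1 had none. Across 32851 promoter windows of this length, 30.2% held a GC box, 9.75% the LEF/TCF motif, 8.94% the TATA box, 4.97% the AP-1 motif and 3.35% the LIM homeodomain core. Those windows were placed by each promoter entry's own position, not by a RefSeq gene start, so the comparison is rough. GC content was 70.6% for Fgf5, 58.9% for Fgf22, 42.8% for Fgfr2 and 57.2% for Fgfbp1, against a median of 53.3% over all windows. Of the other genes, Fgf18 (1 match) and Fgfr3 (3 matches) also held GC boxes, and Fgf7 and Fgf10 held none of the 5 motifs. Entries matched 8 of the 9 genes, all but Fgfr1.

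Fgf5 had 16 and 11 counts in wild type against 719 and 1135 in LDB2-/-. Per length, its FPKM was 0.0935 and 0.0684 in wild type against 5.25 and 6.50 in LDB2-/-. Both LDB2-/- libraries thus lay far above both wild type libraries, where the gene was barely detected. The rise was 6.42 on the log2 scale (SE 0.32, adjusted p = 0.000125). Only 149 of the 12400 tested genes had a larger log2 fold change. That rank and the fold rest on the 16 and 11 wild type counts. The direction was fixed by passing the filter through LDB2-/- alone. In the authors' deposited table the signed fold change of Fgf5 was 86.0 with an adjusted p of 6.27e-52.

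Fgf22 had 79 and 67 counts in wild type against 797 and 1071 in LDB2-/-. Its FPKM was 2.35 and 2.34 in wild type against 29.7 and 31.4 in LDB2-/-, so the libraries of each genotype lay close together and the genotypes far apart. The log2 fold change was 4.02 (SE 0.23, adjusted p = 0.000156), and 339 tested genes had a larger one. A call together with a rise of 10-fold or more, as in Fgf22 and, with its direction fixed by passing, in Fgf5, was found in 3.31% of the tested genes. Fgf22 was above the filter in all 4 libraries. Its FPKM exceeded that of 14.2% of the tested genes in wild type and of 80.1% of them in LDB2-/-, by genotype means.

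Fgf18 had 165 and 114 counts in wild type against 31 and 59 in LDB2-/-. Its FPKM fell from 1.56 and 1.27 to 0.356 and 0.532. It passed the filter through wild type alone, so its direction and the lack of overlap were fixed by passing. The log2 fold change was -1.30 (SE 0.40, adjusted p = 0.0349). This call was lost without wild type library 1 (adjusted p = 0.179), without wild type library 2 (adjusted p = 0.0872) and without LDB2-/- library 1 (adjusted p = 0.0821). It was lost with no filter on low values too (adjusted p = 0.0764), and in the authors' deposited table Fgf18 had an adjusted p of 0.0791. The direction was the same in each of these fits, which adds no support because the gene was chosen by passing.

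Fgf7 and Fgf10, the ligands of dermal cells and epidermal T cells, were not tested. Fgf7 had 3 and 15 counts in wild type against 48 and 0 in LDB2-/-. The 48 counts of LDB2-/- library 1 stand alone, since library 2 of that genotype had none, which allows up to 0.0504 TMM-scaled counts per 1e+06 (CPM), a limit from 3 counts that covers counting error only. With no filter, where 40.8% of 17721 genes were called (19.7% higher and 21.1% lower), the log2 fold change of Fgf7 was 1.79 (adjusted p = 0.525). Fgf7 shares its span with Fam227b, and whether the counting used strand is not given in the sources used here. Fgf10 had 6 and 3 counts in wild type against 7 and 0 in LDB2-/-, and with no filter its log2 fold change was 0.09 (adjusted p = 0.974). A difference in either gene was not detectable at this depth.

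**Figure D2:**
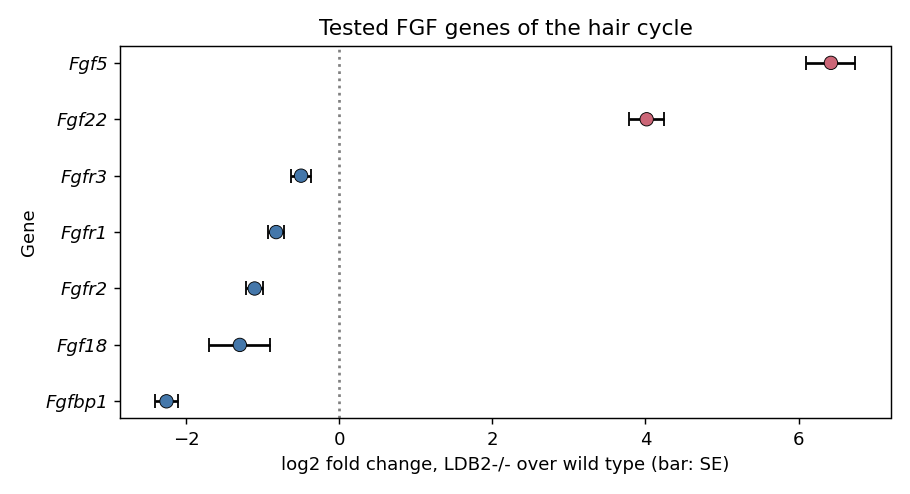
Log2 fold change of LDB2-/- over wild type for the 7 tested genes, with bars of 1 SE. Fgf5 (6.42) and Fgf22 (4.02) lie to the right of 0 and the other 5 genes between -2.25 and -0.50.

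The receptors carry FGF signals into the cells that bear them, and which cells received each ligand was not measured. Fgfr2, the main receptor of the Fgf7 subfamily in epithelium, had an FPKM of 47.5 and 53.6 in wild type against 19.6 and 18.0 in LDB2-/-. Its log2 fold change was -1.10 (SE 0.11, adjusted p = 0.000709). Fgfr1, a receptor of both epithelium and mesenchyme, had an FPKM of 15.7 and 16.1 in wild type against 7.10 and 7.18 in LDB2-/-, which is -0.82 as a log2 fold change (SE 0.10, adjusted p = 0.00158). The libraries of each genotype nearly coincided for this gene. Fgfr3, an epidermal receptor that limits keratinocyte growth, had an FPKM of 48.5 and 58.0 in wild type against 33.2 and 27.0 in LDB2-/-. Its log2 fold change was -0.50 (SE 0.13, adjusted p = 0.0208), the smallest in size of the 7. That call was lost without wild type library 2 (-0.38, adjusted p = 0.0673) and without LDB2-/- library 2 (-0.40, adjusted p = 0.129), and the log2 fold change was -0.81 with the library total alone.

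Fgfbp1 was the most abundant of the 9 genes per length in every library. Its FPKM was 300.2 and 376.6 in wild type against 60.7 and 53.2 in LDB2-/-, a drop that exceeds the spread within either genotype. The log2 fold change was -2.25 (SE 0.14, adjusted p = 0.000203), and 501 of the tested genes had a lower one. In the authors' deposited table the signed fold change of Fgfbp1 was -4.80. The carrier exceeded Fgfr2 by an FPKM ratio of 6.33 and 7.02 in wild type against 3.09 and 2.95 in LDB2-/-, so it was lower relative to that receptor as well.

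Shares within a library do not depend on how libraries are scaled. Sums of FPKM do, and those given here and for the ligands are without TMM. The FPKM of Fgfr1, Fgfr2, Fgfr3 and Fgfr4 summed to 111.7 and 127.8 in wild type against 59.9 and 52.2 in LDB2-/-, with Fgfr4 at 10 or fewer counts in both genotypes together. Fgfr3 held 43.4% and 45.4% of the receptor sum in wild type against 55.4% and 51.7% in LDB2-/-. Fgfr2 held 42.5% and 42.0% in wild type against 32.7% and 34.6% in LDB2-/-. The share of Fgfr1 overlapped between genotypes, with 14.1% and 12.6% against 11.8% and 13.8%. In wild type Fgfr2 and Fgfr3 overlapped in level, while in LDB2-/- Fgfr3 exceeded Fgfr2 by a ratio of 1.69 and 1.49.

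The secreted ligands showed the reverse trend in their sum. Over the 11 secreted ligands with a row, FPKM summed to 6.62 and 6.46 in wild type against 37.9 and 39.8 in LDB2-/-. In wild type Fgf22 (35.5% and 36.2%) and Fgf1 (33.8% and 38.1%), a broadly acting ligand outside the 9 genes, held similar shares, and Fgf18 followed with 23.6% and 19.6%. In LDB2-/- Fgf22 alone held 78.3% and 78.8% of the sum and Fgf5 held 13.9% and 16.3%. Fgf5 had held 1.41% and 1.06% in wild type. Fgf18 was down to 0.940% and 1.34%. In both LDB2-/- libraries the order began with Fgf22, Fgf5 and Fgf1, and in library 1 Fgf21 (1.11%) lay above Fgf18, while in wild type Fgf22 and Fgf1 did not differ beyond their spread.

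**Figure D3:**
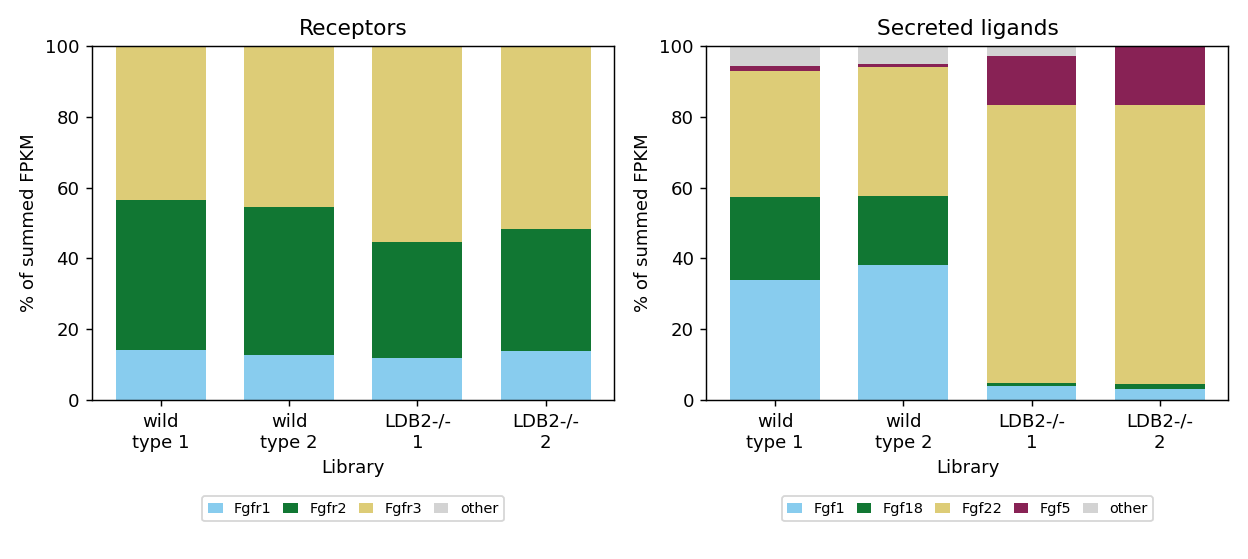
Share of each gene in the summed FPKM of the 4 FGF receptors (left) and of the 11 secreted ligands with a row (right), in percent, 1 bar per library. Fgfr3 takes over 50% of the receptor sum in both LDB2-/- libraries, and Fgf22 and Fgf5 hold most of the ligand sum there, where the shares of Fgf1 and Fgf18 are smaller than in wild type.

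The 9 genes lie on 7 chromosomes, and 3 of them share chromosome 5. In RefSeq coordinates of GRCm38.p6 these are Fgfr3 (gene ID 14184, 33721724 to 33737068), Fgfbp1 (gene ID 14181, 43978858 to 43981828) and Fgf5 (gene ID 14176, 98254184 to 98277033). Fgf22 (gene ID 67112) lies on chromosome 10 (79755051 to 79757795), Fgfr2 (gene ID 14183) on chromosome 7 (130162451 to 130266808) and Fgfr1 (gene ID 14182) on chromosome 8 (25518759 to 25575718). Fgf18 (gene ID 14172) lies on chromosome 11 (33116970 to 33147400), Fgf7 (gene ID 14178) on chromosome 2 (126034658 to 126091185) and Fgf10 (gene ID 14165) on chromosome 13 (118714699 to 118792573). All are protein coding. Fgfr1 shares its span with the gene models Gm16159 and Gm31288, and the span of the other genes except Fgf7 holds no other RefSeq gene.

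Markers of the cells that make or receive these FGFs moved between the genotypes as well, and in bulk epidermis fewer cells of a type and less RNA per cell cannot be told apart. All 10 hair matrix and inner root sheath markers were called higher, and their summed TMM-scaled CPM was 196.1 and 642.1 in wild type against 106825 and 115996 in LDB2-/-. All 10 hair shaft markers rose too, from a sum of 28.8 and 275.6 to 19917 and 22518. Dsg4 was tested through LDB2-/- alone, which fixed its direction. Krt31 and Krt33a each lost the call in 1 of 18 alternatives. The hair lists thus moved with Fgf5 and Fgf22, and their part in those results was not tested. Within wild type the summed FPKM of the hair shaft list was 9.92-fold higher in library 2 than in library 1. That of the hair matrix and inner root sheath list was 3.36-fold higher. Fgf5 and Fgf22 had ratios of 0.732 and 0.996 between the same 2 libraries, from only 16 and 11 counts of Fgf5 and 79 and 67 of Fgf22.

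All 6 basal keratinocyte markers fell, with a sum of 23518 and 22047 TMM-scaled CPM in wild type against 10425 and 10543 in LDB2-/-. Krt5 and Krt14 each lost the call in 1 of 18 alternatives. Set against Krt14, a keratin of basal cells, Fgfr2 stood at 8.36 and 10.5 FPKM per 1000 FPKM of Krt14 in wild type against 8.37 and 7.93 in LDB2-/-. Fgfr1 stood at 2.77 and 3.17 in wild type against 3.02 and 3.16 in LDB2-/- on that scale. The genotypes overlapped for both receptors against Krt14, the basal marker that fell least (-0.90). Fgfr3 stood at 8.55 and 11.4 in wild type against 14.2 and 11.9 in LDB2-/- against Krt14, the reverse of its direction in the test, and it was higher in LDB2-/- against each of the 6 basal markers. Against the other basal markers, Fgfr1 was higher in LDB2-/- for all 5, and Fgfr2 was higher for 4 and overlapped for Krt5. Per 1000 FPKM of Col17a1, the basal marker that fell most (-2.95), Fgfr2 stood at 121.4 and 117.6 in wild type against 410.4 and 450.5 in LDB2-/-. The direction of Fgfbp1 turned with the marker. It was lower in LDB2-/- against Krt14 (52.9 and 73.9 against 25.9 and 23.4), Krt5, Itgb4 and Trp63, and higher against Col17a1 (768.2 and 825.4 against 1269 and 1328) and Itga6 (5543 and 5140 against 5757 and 5869). All 6 suprabasal markers, among them Krt1 (log2 fold change -2.33) and Krt10 (-3.03), were called lower as well.

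Of the other cell types, 7 of 8 tested epidermal T cell markers fell, with a summed TMM-scaled CPM of 243.1 and 301.0 in wild type against 86.9 and 107.1 in LDB2-/-. Klrk1, 1 of the 7, was tested through wild type alone. Cd2 was not called (-0.77, adjusted p = 0.0681), but was called lower without wild type library 1 (adjusted p = 0.0251) and without LDB2-/- library 2 (adjusted p = 0.0347), and Cd3d lost its call without wild type library 2 (adjusted p = 0.0689) and without LDB2-/- library 1 (adjusted p = 0.0729). In that list no marker was at 0 in both libraries of a genotype, while Trdc and Tcrg-C1 had no row. The cell type genes named from here on were chosen after their values were seen. The 5 tested of 8 fibroblast markers (Col1a1, Col1a2, Col3a1, Dcn and Fbln1) rose (sums of 93.5 and 60.9 against 225.9 and 287.4). Of the untested ones, Pdgfra (142 and 62 counts in wild type against 92 and 48 in LDB2-/-) and Lum (83 and 29 against 94 and 61) overlapped. Pdgfrb had 28 and 38 against 79 and 93. The 3 tested of 10 dermal papilla markers (Crabp1, Notum and Wif1) rose too, and their list summed to 8.02 and 10.4 against 42.3 and 39.3. Crabp1 passed the filter through LDB2-/- alone, so its direction was fixed by passing, and its call was lost without wild type library 2 (adjusted p = 0.122). Among untested markers of the same list, Corin (0 and 11 counts in wild type against 24 and 43 in LDB2-/-) was higher in LDB2-/-. Alx4 (13 and 11 against 36 and 34) and Vcan (41 and 78 against 245 and 162) were higher too. Prom1 was as well, at 7 and 2 against 19 and 38. Rspo3 went the other way with 211 and 79 counts in wild type against 42 and 50 in LDB2-/-. Hhip overlapped (4 and 13 against 8 and 28), and Sox2 had 0 and 6 against 0 and 0. Fgf7 and Fgf10 stayed at 48 counts or fewer beside these lists. The bulge list was mixed beside the lower Fgf18, with Lhx2 (1.07) higher, Nfatc1 (-2.99) and Krt15 (-2.01) lower and 3 of 6 not called. Its sum was 3057 and 2044 in wild type against 734.0 and 789.9 in LDB2-/-, and mostly Krt15 (2816 and 1840 against 547.5 and 605.2). Sox9 (-0.02, adjusted p = 0.898), Cd34 (0.41, adjusted p = 0.275) and Lgr5 (0.31, adjusted p = 0.568) were not called. Without wild type library 1, Cd34 (0.90, adjusted p = 0.0148) and Lgr5 (1.09, adjusted p = 0.0201) were called higher. All 7 melanocyte markers rose, from a sum of 37.0 and 57.4 to 1242 and 1440, Tyr and Slc45a2 being tested through LDB2-/- alone. Skeletal muscle markers (Acta1, Myl1, Tnnt3, Atp2a1 and Ckm, 5 of 5 tested) and endothelial markers (Pecam1, Cldn5 and Egfl7, 3 of 3) rose, all tested through LDB2-/- alone. Both tested adipocyte markers (Cidec, tested through wild type alone, and Pparg) fell. The others with a row were near 0 in both genotypes, so the list does not measure adipocyte content. Adipoq had 0 and 0 counts in wild type against 7 and 0 in LDB2-/-, Plin1 0 and 3 against 0 and 0. Cfd had 1 and 0 against 0 and 7. The endothelial Kdr, not tested, had 10 and 5 counts in wild type against 0 and 0 in LDB2-/-. The untested Cdh5 (30 and 50 against 141 and 263) and Emcn (10 and 10 against 59 and 36) were higher. The part of these cells in the FGF results was not tested.

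The genes whose pattern was nearest to Fgf5 over the 4 libraries, by Euclidean distance of centred log2 TMM-scaled CPM, were the keratin-associated gene Krtap4-9 (distance 0.32), Retnlg (0.35) and Krtap5-4 (0.39). Retnlg and Krtap5-4 had no count in wild type, so their place depends on the prior count of 1. Krtap4-9 had 15 and 12 counts in wild type against 883 and 1068 in LDB2-/-, close to the counts of Fgf5 itself. For Fgfr2 the nearest were the zinc finger gene Vezf1 (distance 0.04), Tex261 (0.05) and Zbtb7c (0.05), with log2 fold changes of -1.07, -1.08 and -1.14.

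The rest of the pathway was read from 6 lists of ligands, co-receptors, heparan sulfate enzymes, signal relay, targets and splicing factors. Of their 92 genes with a row, 76 were tested, 18 were called higher and 28 lower (60.5%, close to the 57.2% of all tested genes). Their median log2 fold change was -0.28, against -0.01 over all tested genes. The counts per list below stand beside 28.4% called higher and 28.8% called lower among all tested genes. No list was tested as a set. With the library total alone 10 were higher and 43 lower.

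**Figure D4:**
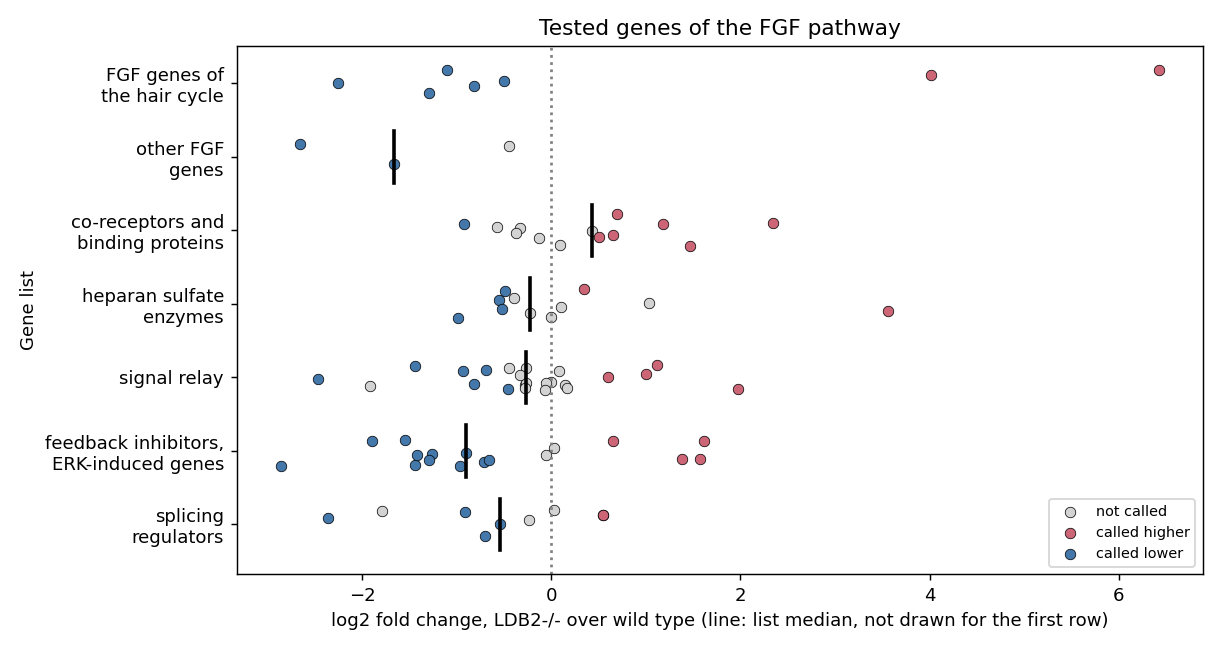
Log2 fold change of LDB2-/- over wild type for every tested gene of the 9 hair cycle genes (first row) and of the 6 further FGF pathway lists, coloured by call, with a line at the median of each further list. Fgf5, Fgf22 and Sulf2 lie farthest to the right, and most called genes among the feedback inhibitors and ERK-induced genes lie left of 0.

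Among the other FGF genes, 9 of 17 had a row and 3 were tested. Fgf11 and Fgf13, members that stay inside the cell, fell by 1.66 (SE 0.24, adjusted p = 0.00269) and 2.66 (SE 0.36, adjusted p = 0.00212) on the log2 scale. The FPKM of Fgf13 was 1.75 and 1.69 in wild type against 0.270 and 0.161 in LDB2-/-, and it passed the filter through wild type alone. Fgf1 was not called (-0.45, adjusted p = 0.124), but was lower with the library total alone (-0.76, adjusted p = 0.0310). Fgf3 and Fgf20 had no count in wild type, and at most 12 and 6 in LDB2-/-.

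Of 13 tested co-receptors, receptor-like and binding proteins, 6 rose, 1 fell and 6 were not called, with a median log2 fold change of 0.43. Fgfrl1, a receptor without a kinase domain, rose by 2.35 (SE 0.21, adjusted p = 0.000506), from an FPKM of 1.24 and 1.14 to 4.92 and 4.68. It was thus the FGF receptor family member that rose while Fgfr1, Fgfr2 and Fgfr3 fell. The heparan sulfate proteoglycans Gpc3 (1.47), Sdc3 (1.18) and Gpc1 (0.70) rose, while Sdc4 fell by 0.93. Flrt3 (0.65), a membrane partner of FGF receptors, rose as well. Sdc1, named after its value was seen, was called higher (0.50, adjusted p = 0.0267), but not without wild type library 2 (adjusted p = 0.0646), LDB2-/- library 1 (adjusted p = 0.132) or LDB2-/- library 2 (adjusted p = 0.108). With the library total alone Sdc3 (adjusted p = 0.0577), Flrt3 (adjusted p = 0.110) and Sdc1 (adjusted p = 0.253) were not called, and the list held 3 higher and 5 lower genes.

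The heparan sulfate enzymes shape the sites that FGFs bind. Of 11 tested, 2 rose, 4 fell and 5 (Hs3st1, Ndst2, Hs2st1, Hs6st1 and Extl3) were not called. Sulf2, a sulfatase that trims these chains outside the cell, rose by 3.56 (SE 0.17, adjusted p = 0.000121), from an FPKM of 7.11 and 9.56 to 78.8 and 77.5. Hpse, which cleaves the chains, had a log2 fold change of -0.99 (adjusted p = 0.0263), a call lost without wild type library 2 (adjusted p = 0.0950) and without LDB2-/- library 1 (adjusted p = 0.0663). Ext1 (-0.56), Glce (-0.52) and Ndst1 (-0.49), further enzymes of chain synthesis and editing, were lower. The calls of Glce and Ndst1 were lost without wild type library 2 (adjusted p = 0.121 and 0.0658) and without LDB2-/- library 2 (adjusted p = 0.175 and 0.0718). Ext2 was called higher by 0.34 (adjusted p = 0.0451), a call lost in 11 of 18 alternatives, without any 1 of the 4 libraries (adjusted p from 0.0558 to 0.239) and with the library total alone (0.02). Hs3st1 was called without wild type library 2 (1.88, adjusted p = 0.00956) and Extl3 without wild type library 1 (-0.58, adjusted p = 0.0107).

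Of 23 signal relay genes, 4 were called higher, 6 lower and 13 not at all. The kinase Braf rose by 1.97 (SE 0.13, adjusted p = 0.000214), from an FPKM of 2.70 and 3.15 to 9.96 and 8.42. Hras (1.12) and the ERK pathway kinases Map2k2 (1.00) and Mapk3 (0.60) rose as well. Mapk3 was not called without wild type library 2 (adjusted p = 0.0627), without LDB2-/- library 2 (adjusted p = 0.110) or with the library total alone (adjusted p = 0.148). The RAS activator Sos2 fell by 0.93. Cbl, a ubiquitin ligase that turns receptors over, had a log2 fold change of -2.47 (adjusted p = 0.0340), with counts of 523 and 1951 in wild type against 233 and 122 in LDB2-/-. That value rests on wild type library 2, without which it was -1.07 (adjusted p = 0.108), and the call was lost without LDB2-/- library 2 too (adjusted p = 0.0535). The adaptor Frs3 (-1.44, adjusted p = 0.0437) was lost without each library except LDB2-/- library 1, with adjusted p of 0.161 and 0.0678 without wild type libraries 1 and 2 and 0.0887 without LDB2-/- library 2, where it was -0.97. Cbl and Frs3 passed the filter through wild type alone. With the library total alone 13 relay genes were lower and 3 higher.

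Genes that ERK signalling induces, including the feedback inhibitors of FGF receptors, were mostly lower. Of 17 tested, 11 fell, 4 rose and 2 (Etv5 and Ier3) were not called, with a median log2 fold change of -0.90. Spry4 and Spry2, Sprouty inhibitors of receptor signalling, fell by 1.90 (SE 0.27, adjusted p = 0.00254) and 1.44 (SE 0.15, adjusted p = 0.00083) on the log2 scale. Spry4 passed the filter through wild type alone. The FPKM of Spry2 was 18.0 and 17.7 in wild type against 5.76 and 4.79 in LDB2-/-. Spred2, a related inhibitor, fell by 1.54. Spry1 (-0.90) and the ERK phosphatase Dusp6 (-0.96), named after their values were seen, were lower too. The immediate early gene Fos fell by 2.86 (SE 0.12, adjusted p = 8.66e-05), from an FPKM of 328.2 and 328.8 to 38.4 and 34.1. Those that rose were the ETS factor Etv4 (1.61), Phlda1 (1.57), the cyclin Ccnd1 (1.38) and the phosphatase Dusp5 (0.65, adjusted p = 0.0352). Dusp5 was not called without wild type library 1 (adjusted p = 0.138), without LDB2-/- library 1 (adjusted p = 0.1002) or with the library total alone (adjusted p = 0.234). Many other signals act on these genes, so the list does not measure FGF signalling alone.

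Of 9 splicing factors that can act on FGF receptor transcripts, 2 rose, 4 fell and 3 were not called. Esrp1 (0.03, adjusted p = 0.856) and Esrp2 (-0.23, adjusted p = 0.201), which promote the epithelial splice forms, were not called. Esrp1 had an FPKM of 91.9 and 99.9 in wild type against 83.2 and 72.9 in LDB2-/-, and its log2 fold change was -0.29 with the library total alone. Esrp2 was called lower under that scaling (-0.55, adjusted p = 0.0309). Rbm47 fell by 2.36 (SE 0.19, adjusted p = 0.000415), from counts of 1924 and 2126 to 287 and 337. Ptbp2 (-0.91), Rbfox2 (-0.70) and Celf1 (-0.54) were lower and Hnrnpm (0.54) and Ptbp1 (0.54) higher, and none of these 5 calls held without LDB2-/- library 2, where adjusted p ran from 0.0511 for Hnrnpm to 0.117 for Celf1. Ptbp2 was also lost without wild type libraries 1 and 2 (adjusted p = 0.0665 and 0.0561), and Ptbp1 without LDB2-/- library 1 (adjusted p = 0.0750). Both Hnrnpm and Ptbp1 were not called with the library total alone. Mbnl1 was not called (-1.79, adjusted p = 0.0797), with an FPKM of 12.2 and 1.92 in the LDB2-/- libraries. Without LDB2-/- library 1 it was at -3.52 (adjusted p = 8.13e-06) and without LDB2-/- library 2 at -1.02 (adjusted p = 0.00166). The deposited values are per gene, so they do not show which splice form of a receptor was present.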

How the data were processed

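RNA was measured in 4 libraries of back skin epidermis, 2 per genotype. The labels' protocols give a dispase digestion, Trizol extraction and the Illumina TruSeq RNA kit. Base calling software bcl2fastq 1.8.4, the aligner HISAT2 2.1.0, the assembler StringTie 1.3.4d and build mm10 are named in the submitters' processing notes, without settings.

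Per the file headers, the authors deposited raw read counts, FPKM, and log2 values normalized between libraries by a method the headers do not name. The authors' deposited comparison gives a signed fold change (used as a score), a test statistic (a score), a p-value and adjusted p-value per gene, and a mean scaled count (a signal). Only the signed fold change and adjusted p were used.

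Counts were scaled with TMM (factors 1.105 and 1.128 in wild type, 0.920 and 0.872 in LDB2-/-) and tested with edgeR 4.0.16 in R 4.3.3, two-sided, over 12400 genes. The SE is the one implied by the F statistic. CPM are per 1e+06 counts of the scaled total over tested genes. FPKM are as deposited, without TMM, so their ratios differ from the fitted folds. The filter was an FPKM of 1 or more in 2 libraries. Alternatives used limma 3.58.1 and DESeq2 1.42.0. The edgeR script was tested on simulated data. Summaries, promoter searches and figures used Python 3.11.15, pandas 2.3.3 and matplotlib 3.10.9.

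The members and lists were chosen with earlier results of these data known. Named genes were the 9 members, of each pathway list up to 6 called genes with the largest absolute log2 fold change and every gene in a count of 5 or fewer, the first 2 markers where a marker list stands beside a result, and the 3 nearest patterns to the ligand and receptor with the largest change, leaving out unnamed models.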

Additional observations from a re-analysis of the deposited data

How the results depend on the processing

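In all, 18 alternatives were run (other scalings, filters, tests and pseudocounts, a replicate block, each library left out, and, chosen after seeing the data, crossed pairs and TMM without hair genes). Fgf5, Fgf22, Fgfr1, Fgfr2 and Fgfbp1 kept their direction and their call in all 18. Fgf18 and Fgfr3 kept their direction, Fgf18 being untested under a filter on the mean FPKM. The directions of Fgf5 and Fgf18 were fixed by passing the main filter. With limma on the authors' normalized log2 values the differences were smaller, 2.97 for Fgf5, 2.13 for Fgf22, -0.72 for Fgfr2 and -0.42 for Fgf18. Of 46 pathway genes named by rule, 35 were called, and 20 of these kept the call and direction in every alternative that tested them, while 15 lost it in 1 or more. Of the 11 not called, 7 were called in 1 or more alternatives.

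With the library total alone 2248 genes were called higher. The further pathway lists then had 10 higher and 43 lower, against 11 and 47 with limma on log2(FPKM + 1) and 10 and 46 with a pseudocount of 0.1. In these 3 fits, in that order, Hs2st1 changed sign to -0.22, -0.19 and -0.22, Etv5 to -0.29, -0.24 and -0.28, and Esrp1 to -0.29, -0.30 and -0.30. Ndst2 turned to 0.01 with DESeq2's size factors (0.0079), with the DESeq2 test (0.0079) and with TMM without hair genes (0.0058).

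Leaving out each library in turn gave 2 members called higher and 3 to 4 called lower. The range was -0.014 to 0.079 for Etv5, -0.019 to 0.074 for Esrp1, -0.11 to 0.12 for Ndst2, -0.16 to 0.049 for Ier3, -0.14 to 0.10 for Sox9 and -0.20 to 1.09 for Lgr5. Where that leaves 1 library in a genotype, it is assumed to vary like the other genotype's.

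With the replicate number as a block, 2 members were called higher and 3 lower, since Fgf18 (adjusted p = 0.065) and Fgfr3 (adjusted p = 0.055) were lost. Over all genes 2916 were higher and 3176 lower. Libraries with the same number deviated in opposite directions (correlation across genes -0.21), so the numbers do not show that libraries are paired. The crossed pairing gave 3678 higher and 3591 lower, with 2 and 5 members. With 2 libraries per genotype and at most 15 counts of Fgf7 and 6 of Fgf10 per wild type library, changes in those 2 genes could not be resolved.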
